A study of Homo sapiens with 2 samples.

Results

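The 43 genes described here are interferon-stimulated genes, which were taken from a list of named genes and sorted by function. All 43 had rows in both deposited files, out of 26518 genes that did. RNA sequencing measured them in A549, an established line from a human lung adenocarcinoma (non-small cell lung cancer in the labels). The shPSPC1 group carried a short hairpin RNA against PSPC1, which encodes a paraspeckle RNA-binding protein. The shLacZ group, the control, carried one against the bacterial gene LacZ, which has no counterpart in human cells. All cells grew in the same medium, with serum at 10% and antibiotics (penicillin, streptomycin) at 1%, and no interferon treatment is named in the labels. With 1 library per group, the differences carry no replicate check and no test between groups is possible. The sources used here do not say whether the cells were a clone or a pool, or whether the libraries kept the strand or selected poly(A) RNA.

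Interferons are secreted proteins that bind receptors on the cell surface. Those of type I and type III activate the kinases JAK1 and TYK2. After type I or type III interferon, these kinases phosphorylate STAT proteins, and a complex that contains STAT2 and IRF9 then binds interferon-stimulated response elements near the start of its target genes. Lung epithelial cells carry both kinds of receptor, and many of the induced proteins act against viruses, by sensing foreign RNA, blocking entry or modifying proteins with ISG15.

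Letters of the response element were looked for in the members' promoters. The element holds a repeated GAAA, so GAAA followed by any 2 bases (NN) and another GAAA was searched, as was the reverse complement (TTTC, NN, TTTC). Overlapping matches were allowed. The search covered RefSeq windows on GRCh38.p14 that run from 250 bases before to 50 bases after each start. Windows were found for 35 of the 43 members, and 24 of the 35 (68.6%) held a match, against 1195 of 27305 genes (4.38%) in the whole table. A match describes the letters and not a bound site. For 7 members, the 160 bases before the start are given, 5′ to 3′ in the direction of the gene, with matches in capitals. ISG15 (chr1:1013337-1013496, plus strand), IFI6 (chr1:27672193-27672352, minus strand) and IFI44 (chr1:78649629-78649788, plus strand) are members with lower levels in the shPSPC1 library. From the IFIT cluster, IFIT3 (chr10:89327837-89327996, plus strand) was lower, while IFIT1 (chr10:89392463-89392622, plus strand) and IFIT5 (chr10:89414408-89414567, plus strand) were not. STAT2 (chr12:56360108-56360267, minus strand) was higher.
ISG15: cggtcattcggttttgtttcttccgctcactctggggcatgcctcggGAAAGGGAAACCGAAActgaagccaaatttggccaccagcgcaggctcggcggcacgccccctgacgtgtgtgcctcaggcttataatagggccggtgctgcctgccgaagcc
IFI6: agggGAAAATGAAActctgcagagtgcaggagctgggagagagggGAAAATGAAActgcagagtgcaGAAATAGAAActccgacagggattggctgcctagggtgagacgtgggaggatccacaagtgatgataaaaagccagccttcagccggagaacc
IFI44: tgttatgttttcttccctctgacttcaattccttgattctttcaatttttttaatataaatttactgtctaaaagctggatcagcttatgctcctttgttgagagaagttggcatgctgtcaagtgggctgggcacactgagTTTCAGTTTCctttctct
IFIT3: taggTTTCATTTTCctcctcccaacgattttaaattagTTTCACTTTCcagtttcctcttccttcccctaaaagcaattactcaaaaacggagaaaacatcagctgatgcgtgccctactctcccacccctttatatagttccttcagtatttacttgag
IFIT1: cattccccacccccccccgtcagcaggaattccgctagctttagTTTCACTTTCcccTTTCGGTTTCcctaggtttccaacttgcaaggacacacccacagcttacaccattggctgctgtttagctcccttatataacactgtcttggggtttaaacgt
IFIT5: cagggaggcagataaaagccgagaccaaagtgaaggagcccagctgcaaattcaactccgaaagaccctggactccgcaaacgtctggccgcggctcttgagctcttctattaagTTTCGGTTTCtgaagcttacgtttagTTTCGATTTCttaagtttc
STAT2: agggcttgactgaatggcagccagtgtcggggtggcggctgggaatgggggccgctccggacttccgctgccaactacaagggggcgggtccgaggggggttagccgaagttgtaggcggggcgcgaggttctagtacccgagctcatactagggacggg
The ISG15 stretch holds 2 overlapping matches, the first 113 bases before the start. IFI6 holds 3 matches between 156 and 93 bases before its start, while the single match of IFI44 lies 18 bases before its own. IFIT3, IFIT1 and IFIT5 each hold 2 in these stretches, and the STAT2 stretch holds none.

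Expression is given as FPKM (sequenced fragments per kilobase, relative to the library's mapped fragments), summed over a gene's transcripts, with ± the half-width of a 95% interval that covers error within a library only. The log2 ratio is shPSPC1 over shLacZ with a pseudocount of 1 FPKM, which understates the change of genes at low levels. A second measure, estimated fragments, multiplies the FPKM of each transcript by the fragments that 1 FPKM stands for at its length, so that a short assembled transcript weighs less. It starts from the same FPKM, so a gene with 1 expressed transcript has nearly the same ratio by both measures. Agreement between the measures is therefore no independent check. As no test was possible, members were counted by a rule of size, which asked for 1 FPKM or more in the higher library, intervals without overlap, and a difference of at least 2-fold or, in a weaker form, 1.5-fold. Only genes past the weaker form are said to have fallen. The estimated depth was 56800000 fragments in the shPSPC1 and 56000000 in the shLacZ library, and 1 FPKM over 2000 bases stood for 105 and 103 fragments in these libraries. PSPC1 itself stood at 17.7 ± 0.858 FPKM in the shPSPC1 and 31.5 ± 1.25 FPKM in the shLacZ library, 56.3% of the control level. Its annotated transcripts alone had 0 FPKM in the shPSPC1 and 4.49 FPKM in the shLacZ library. The rest came from assembled transcripts found in both files.

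Most interferon-stimulated genes were lower in the shPSPC1 library, by small amounts. The log2 ratio was below 0 for 39 of 43 members by summed FPKM and for 40 by estimated fragments, and 39 were below 0 by both. The background for both measures was 31.5% of all 26518 genes, 8154 of which were at 0 in both libraries, and 43.5% of the 11415 genes at a mean of 1 FPKM or more. By 1 measure alone, 34.3% of all genes were below 0 by either. Of the 11415, 48.9% were below 0 by summed FPKM and 48.8% by fragments. The members' median was -0.28 by either measure, beside 0.01 for those 11415 genes. Epithelial markers of A549 cells had a median of -0.33 by either measure, with 9 of 10 below 0 by summed FPKM and 8 by fragments, and their part in the members' ratios was not tested. In bulk RNA, fewer cells with a transcript and less of it per cell cannot be told apart. At least 1.5-fold lower by both measures were 7 members (background 1.59% of all genes and 3.31% of the 11415), and these were IFI6, IFI27, ISG15, IFI35, MX1, IFI44 and IFIT3. No member was 1.5-fold higher by either measure. The background was 1.98% of all genes and 4.08% of the 11415 by summed FPKM, and 1.55% and 2.85% by fragments. At the 2-fold limit, IFI6 passed by summed FPKM (background 0.913% of all genes and 1.86% of the 11415). By estimated fragments, IFI6 and IFI27 passed (background 0.871% and 1.56%). By summed FPKM, the intervals lay apart for 23 members that were lower (background 13.2% of all genes and 25.3% of the 11415). They also lay apart for 2 that were higher, STAT2 and IRF1 (background 13.4% and 25.8%). By estimated fragments they lay apart for 25 that were lower, IRF1 among them (background 13.7% and 26.1%). Only 1, STAT2, was higher with intervals apart by that measure (background 13.8% and 26.6%).

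**Figure D1:**
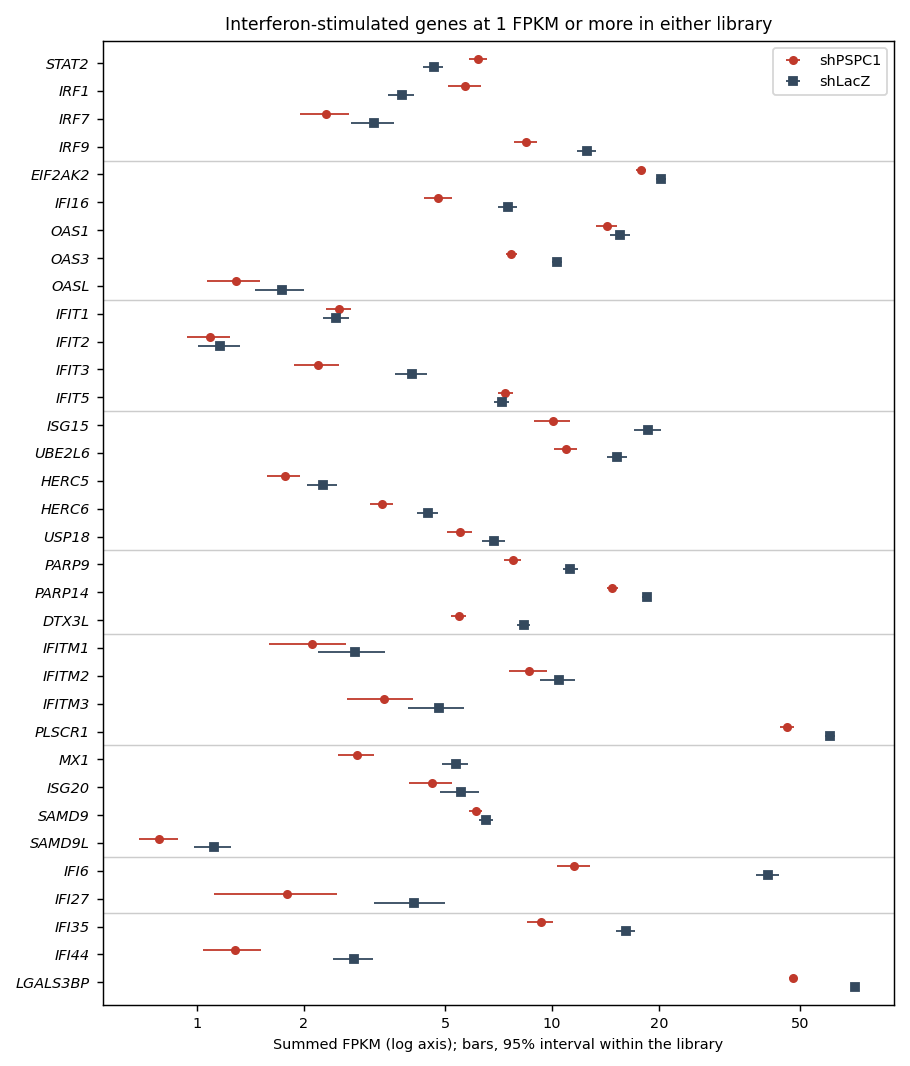
Summed FPKM of the 34 members that reached 1 FPKM in either library, on a log axis, with red circles for shPSPC1, dark squares for shLacZ, bars for the 95% interval within each library and grey lines between functional groups. Red lies left of dark for all but STAT2, IRF1, IFIT1 and IFIT5, and the widest gap is that of IFI6, at 11.6 and 40.6 FPKM.

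**Figure D2:**
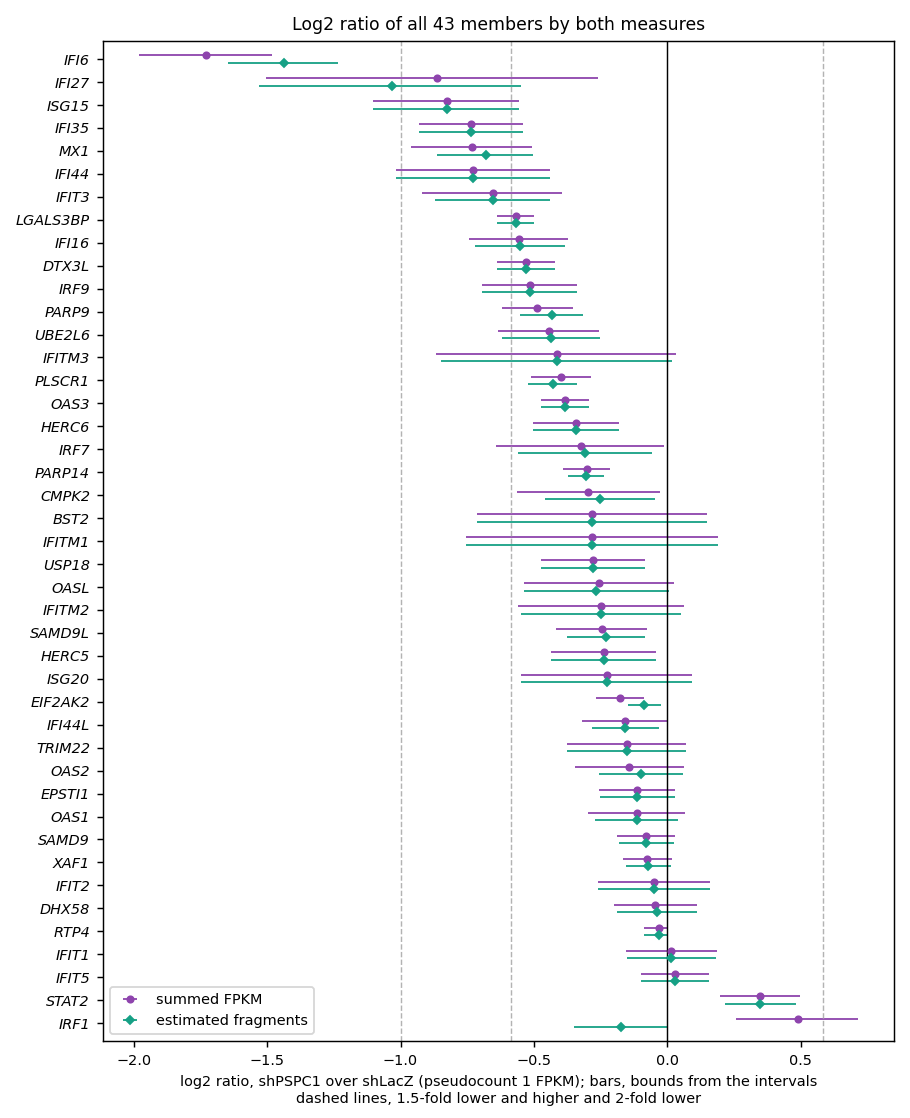
Log2 ratio, shPSPC1 over shLacZ, of all 43 members by summed FPKM (purple circles) and by estimated fragments (green diamonds), with bounds from the intervals as bars and dashed lines at 1.5-fold lower and higher and 2-fold lower. Both measures start from the same FPKM and nearly coincide for most members. IRF1 stands at 0.49 by summed FPKM and at -0.18 by fragments.

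The lower values were not limited to weakly expressed members. Among the 10 members with a mean under 1 FPKM, all 10 were below 0, with a median of -0.15. Over all 15103 genes in this range, 23.3% were below 0 and the median was 0. That range includes 8154 genes listed at 0 in both libraries. The median was -0.33 for the 13 members between 1 and 5 FPKM, -0.38 for the 15 between 5 and 15 FPKM, and -0.40 for the 5 at 15 FPKM or more. Over all genes, the medians in the upper 3 of these ranges were 0.01, 0.02 and 0.00. Summed over the 43 members, the level was 289.7 FPKM in the shPSPC1 and 415.9 FPKM in the shLacZ library, or 44324 estimated fragments in the shPSPC1 and 56379 in the shLacZ library.

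Ratios were also set beside the promoter letters. Members with and without a match had medians close to each other. The median log2 ratio was -0.34 for the 24 members with a match, of which 22 were below 0, and -0.30 for the 11 without one, of which 9 were below 0. Among all genes at a mean of 1 FPKM or more with a window, the median was -0.04 for the 336 with a match and 0.01 for the 8718 without. Below 0 were 56.8% of the 336 and 48.6% of the 8718. The 8 members with no window had a median of -0.20, and all 8 were below 0.

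**Figure D3:**
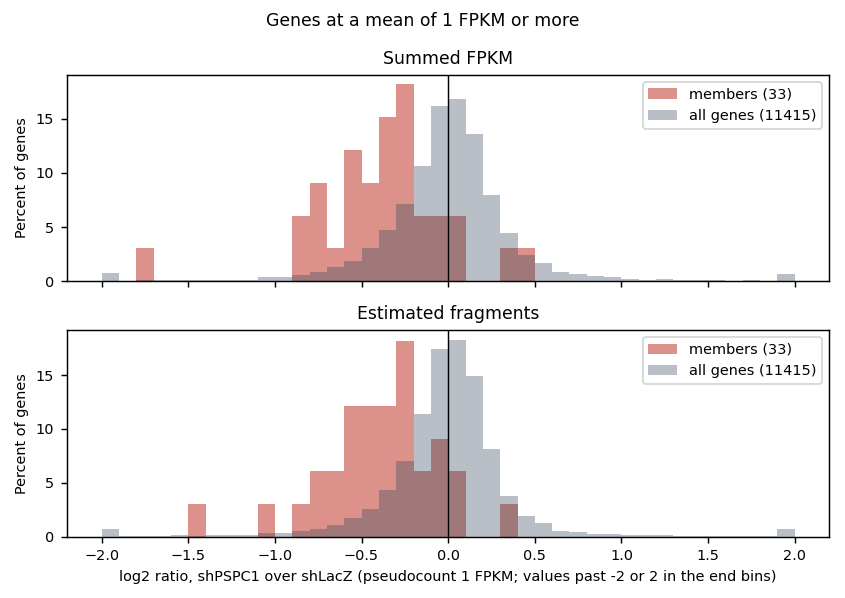
Distribution of log2 ratios, shPSPC1 over shLacZ, for the 33 members (red) and all 11415 genes (grey) at a mean of 1 FPKM or more, as percent of genes in each bin, by summed FPKM (top) and estimated fragments (bottom). The members are centred left of 0, with a median of -0.34, and the grey bars are centred near 0.01.

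Genes that carry the signal from the receptor to the promoter differed in opposite directions. IRF9, the DNA-binding subunit of the complex that binds the response element, stood at 8.46 ± 0.626 FPKM in the shPSPC1 and 12.5 ± 0.766 FPKM in the shLacZ library (log2 ratio -0.52, with bounds of -0.69 and -0.34). Its partner STAT2 went the other way, with 6.18 ± 0.362 FPKM in the shPSPC1 and 4.64 ± 0.304 FPKM in the shLacZ library (0.35, with bounds of 0.20 and 0.50). The difference in STAT2 was present in both annotated transcripts, at 4.83 and 1.35 FPKM in shPSPC1 cells and 4.14 and 0.506 FPKM in shLacZ cells. STAT2 spans chromosome 12 from 56735381 to 56754037, minus strand, in the files' own coordinates. No source used here names the build of these, and they are not on that of the promoter windows. IRF7, a factor that drives the production of type I interferon, had 2.32 ± 0.370 FPKM in shPSPC1 cells and 3.15 ± 0.439 FPKM in shLacZ cells (-0.33). For IRF1, a transcription factor strongly induced by interferon gamma, the sign depended on the measure. Its sum was 5.71 ± 0.623 FPKM in shPSPC1 and 3.77 ± 0.314 FPKM in shLacZ cells, but its estimated fragments numbered 626 and 722, a log2 ratio of -0.18. The annotated IRF1 transcript had 2.04 FPKM in shPSPC1 and 3.09 FPKM in shLacZ cells, and the rest came from assembled transcripts, of 2.63 and 1.03 FPKM in the shPSPC1 file and 0.680 FPKM in the shLacZ file.

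All 7 members that sense or process foreign nucleic acid were below 0, with a median of -0.18, and none passed the rule of size. IFI16, a DNA sensor, had the lowest ratio, with 4.78 ± 0.431 FPKM in shPSPC1 and 7.50 ± 0.456 FPKM in shLacZ cells (-0.56). On annotated transcripts alone it had 2.83 FPKM in shPSPC1 and 7.50 FPKM in shLacZ cells (-1.15), past the 2-fold limit. That count leaves out an assembled transcript of 1.95 FPKM in the shPSPC1 file, while the assembled one of the shLacZ file was at 0. EIF2AK2, the kinase PKR that halts translation on double-stranded RNA, had 17.8 ± 0.547 FPKM in shPSPC1 and 20.3 ± 0.722 FPKM in shLacZ cells (-0.18), and 7980 and 8374 fragments in these libraries (-0.09). The oligoadenylate synthetases activate the nuclease RNase L. OAS3 stood at 7.69 ± 0.289 FPKM in shPSPC1 and 10.3 ± 0.337 FPKM in shLacZ cells (-0.38), with intervals apart. OAS1 had 14.3 ± 0.986 FPKM in shPSPC1 and 15.6 ± 1.03 FPKM in shLacZ cells (-0.12), and its intervals overlapped. So did those of OASL, a relative without synthetase activity, at 1.29 ± 0.217 FPKM in shPSPC1 and 1.73 ± 0.274 FPKM in shLacZ cells. OAS1, OAS3 and OAS2 lie side by side on chromosome 12, within 104.8 kb. OAS2 was under 1 FPKM in both libraries, far below its neighbours.

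The IFIT genes, whose proteins bind the ends of foreign RNA, were split. IFIT3, which stabilises IFIT1 in the complex they form, fell to 2.20 ± 0.317 FPKM in shPSPC1 cells, against 4.03 ± 0.416 FPKM in shLacZ cells (-0.65, with bounds of -0.92 and -0.39), from 293 and 532 fragments. That call was lost when assembled transcripts were also joined by exon overlap (-0.44) and when the libraries were scaled to the same sum without mitochondrial genes (-0.58). Both annotated IFIT3 transcripts were lower, at 1.43 and 0.763 FPKM in shPSPC1 cells against 2.78 and 1.25 FPKM in shLacZ cells. The other 3 members of the family hardly differed. IFIT1 stood at 2.50 ± 0.204 FPKM in shPSPC1 and 2.47 ± 0.204 FPKM in shLacZ cells (0.02). IFIT5 had 7.39 ± 0.366 FPKM in shPSPC1 and 7.22 ± 0.364 FPKM in shLacZ cells (0.03), and IFIT2 had 1.09 ± 0.151 FPKM in shPSPC1 and 1.16 ± 0.158 FPKM in shLacZ cells (-0.05). The intervals of these 3 overlapped, with log2 bounds that ran from -0.26 for the lowest to 0.18 for the highest. The 4 genes sit within 119.1 kb of chromosome 10 in the order IFIT2, IFIT3, IFIT1, IFIT5, so the lower gene lies between neighbours whose intervals overlapped. IFIT3, IFIT1 and IFIT5 all held the motif in the promoter stretches printed above.

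ISG15 and the enzymes that attach and remove it were lower together, with intervals apart for all 5. ISG15 is a ubiquitin-like protein that is joined to other proteins after interferon. Its gene, on the plus strand of chromosome 1 from 948847 to 949920 in the files' coordinates, fell to 10.1 ± 1.18 FPKM in shPSPC1 cells, against 18.6 ± 1.62 FPKM in shLacZ cells. The log2 ratio was -0.83, with bounds of -1.11 and -0.56, from 289 and 530 fragments on annotated transcripts alone. UBE2L6, the conjugating enzyme, had 10.95 ± 0.836 FPKM in shPSPC1 and 15.3 ± 0.995 FPKM in shLacZ cells (-0.44). HERC5, the main human ligase for ISG15, had 1.76 ± 0.192 FPKM in shPSPC1 and 2.26 ± 0.219 FPKM in shLacZ cells (-0.24). Its neighbour HERC6, which acts as the main ligase in mouse, had 3.32 ± 0.250 FPKM in shPSPC1 and 4.47 ± 0.297 FPKM in shLacZ cells (-0.34). USP18, which removes ISG15 and also restrains the type I receptor, had 5.50 ± 0.454 FPKM in shPSPC1 and 6.88 ± 0.511 FPKM in shLacZ cells (-0.28). USP18 has near-identical copies in the genome, so its reads may be shared with them. Of the 5 genes, ISG15 alone passed the 1.5-fold limit.

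PARP9, PARP14 and DTX3L, neighbours within 202.9 kb of chromosome 3, were also lower with intervals apart in each case. PARP9 forms a complex with the ubiquitin ligase DTX3L, and PARP14 adds single ADP-ribose units to proteins. PARP9 had 7.76 ± 0.433 FPKM in shPSPC1 and 11.3 ± 0.526 FPKM in shLacZ cells (-0.49). DTX3L, which starts next to PARP9 and runs the other way, had 5.46 ± 0.261 FPKM in shPSPC1 and 8.32 ± 0.325 FPKM in shLacZ cells (-0.53). PARP14 had 14.8 ± 0.542 FPKM in shPSPC1 and 18.5 ± 0.515 FPKM in shLacZ cells (-0.30), with 5804 and 7165 fragments. The ratios of the divergent pair were closer to each other than to that of PARP14. They overlap in 185 exon bases on opposite strands, 3.21% of the exon bases of DTX3L, and these were the only members with exon bases that overlap another annotated gene.

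Among proteins of the membrane, PLSCR1 differed beyond its intervals and the IFITM genes did not. PLSCR1, a phospholipid scramblase, stood at 45.9 ± 2.13 FPKM in shPSPC1 and 60.8 ± 2.03 FPKM in shLacZ cells (-0.40), and at 3315 and 4448 fragments (-0.43). Most of its level came from assembled transcripts, with 8.79 FPKM in shPSPC1 and 9.54 FPKM in shLacZ cells on the annotated one. The IFITM proteins, which block fusion of viral and cell membranes, are encoded within 12.8 kb of chromosome 11. IFITM2 had 8.63 ± 1.07 FPKM in shPSPC1 and 10.4 ± 1.19 FPKM in shLacZ cells (-0.25). IFITM3 had 3.35 ± 0.706 FPKM in shPSPC1 and 4.79 ± 0.851 FPKM in shLacZ cells (-0.41). IFITM1 had 2.11 ± 0.519 FPKM in shPSPC1 and 2.78 ± 0.597 FPKM in shLacZ cells (-0.28). These genes are short and close in sequence, their intervals are wide, from 67 to 334 fragments a library, and reads may be shared among them.

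Of the antiviral effectors, MX1 was the member past the limit. MX1 is a dynamin-like GTPase that blocks several RNA viruses, and its gene spans chromosome 21 from 42792520 to 42831141 on the plus strand. It fell to 2.82 ± 0.326 FPKM in shPSPC1 cells, against 5.36 ± 0.456 FPKM in shLacZ cells (-0.73, with bounds of -0.96 and -0.51), or 441 and 807 fragments (-0.68). The annotated transcript found in both libraries had 1.58 FPKM in shPSPC1 and 3.16 FPKM in shLacZ cells. Another annotated transcript was listed at 0 in the shPSPC1 file, where an assembled one with 1.25 FPKM covered the same ends, and had 2.20 FPKM in the shLacZ file. Without assembled transcripts the ratio of MX1 was therefore -1.30. ISG20, an exonuclease for single-stranded RNA, had 4.58 ± 0.637 FPKM in shPSPC1 and 5.53 ± 0.704 FPKM in shLacZ cells (-0.23), with overlapping intervals. SAMD9, which restricts poxviruses, had 6.10 ± 0.253 FPKM in shPSPC1 and 6.52 ± 0.296 FPKM in shLacZ cells (-0.08) from 2322 and 2440 fragments, and its intervals overlapped. Its neighbour SAMD9L had 0.783 ± 0.0985 FPKM in shPSPC1 and 1.11 ± 0.133 FPKM in shLacZ cells (-0.25), and its intervals lay apart.

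The lowest ratios belonged to IFI6 and IFI27, related genes for small mitochondrial and membrane proteins that affect cell death. IFI6 fell to 11.6 ± 1.24 FPKM in shPSPC1 cells, against 40.6 ± 3.10 FPKM in shLacZ cells (-1.73, with bounds of -1.98 and -1.48), and 0.946% of the 11415 genes had a ratio that low or lower. The size rested on transcripts assembled in the shLacZ file only. These were 5 transcripts of 638 bases each that summed to 25.5 FPKM, and the shPSPC1 file held none. All 5 had the same FPKM and interval. The half-width of the sum treats transcripts as independent, so the bounds of IFI6 may be too narrow. Annotated transcripts alone gave 11.6 FPKM in shPSPC1 and 15.1 FPKM in shLacZ cells, a log2 ratio of -0.36, which no longer passed. By estimated fragments, which also count the 5 assembled transcripts, IFI6 had 447 in the shPSPC1 and 1261 in the shLacZ library (-1.44). Its most abundant transcript alone gave a log2 ratio of -0.19. IFI6 spans chromosome 1 from 27992572 to 27998724 (minus strand). IFI27 fell to 1.79 ± 0.678 FPKM in shPSPC1 cells, against 4.08 ± 0.918 FPKM in shLacZ cells (-0.86, with bounds of -1.50 and -0.26). It rested on 41 fragments in the shPSPC1 and 112 in the shLacZ library (-1.03). Its annotated transcript had 0.746 FPKM in shPSPC1 and 2.50 FPKM in shLacZ cells.

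**Figure D4:**
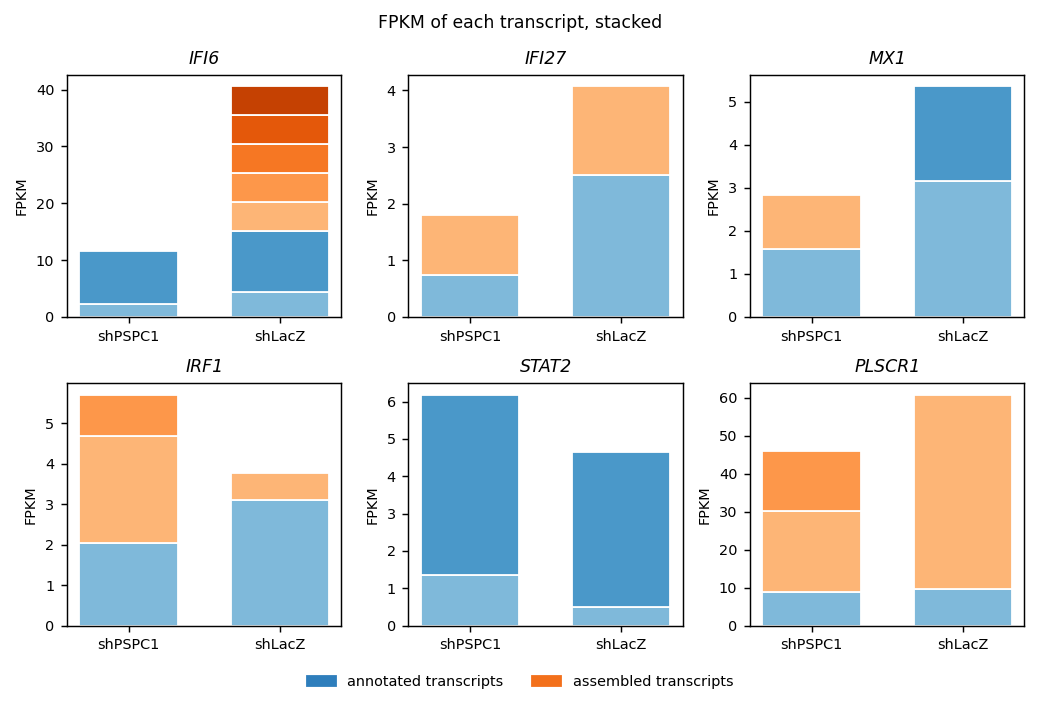
FPKM of each transcript of 6 members, stacked, in the shPSPC1 (left bar) and shLacZ (right bar) library, with annotated transcripts in blue and transcripts assembled from the reads in orange. The 5 assembled IFI6 transcripts in shLacZ cells sum to 25.5 FPKM, and the assembled IRF1 transcripts in shPSPC1 cells stand at 2.63 and 1.03 FPKM.

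The remaining members hold 3 that reached 1 FPKM. IFI35, which binds the interferon-induced protein NMI, fell to 9.29 ± 0.774 FPKM in shPSPC1 cells, against 16.1 ± 1.03 FPKM in shLacZ cells (-0.74, with bounds of -0.93 and -0.54), from 576 and 987 fragments. Its gene spans chromosome 17 from 41158742 to 41166476 on the plus strand. IFI44, a cytoplasmic protein that is widely used as a marker of interferon exposure, fell to 1.28 ± 0.239 FPKM in shPSPC1 cells, against 2.77 ± 0.355 FPKM in shLacZ cells (-0.73), from 114 and 244 fragments. LGALS3BP, a secreted glycoprotein that binds galectins, was the member with the highest level. It had 47.9 ± 1.26 FPKM in shPSPC1 and 71.5 ± 1.56 FPKM in shLacZ cells, and its ratio of -0.57, with bounds of -0.64 and -0.50, was just short of the 1.5-fold limit. IFI35, IFI44, LGALS3BP, IFIT3 and ISG15 carried no FPKM on transcripts of 1 file only, so no transcript found in 1 library alone entered their ratios. Among the 30 members of that kind, 27 were below 0, the median was -0.28 and 4 were at least 1.5-fold lower.

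A further 9 members stayed under 1 FPKM in both libraries, from 0 to 0.676 FPKM in shPSPC1 and from 0.0209 to 0.961 FPKM in shLacZ cells. They are DHX58, OAS2, BST2, TRIM22, CMPK2, RTP4, XAF1, IFI44L and EPSTI1, and each had a ratio below 0. Among all 15103 genes with a mean under 1 FPKM, 23.3% were below 0, with 8154 listed at 0 in both libraries. RTP4 was listed at 0 in the shPSPC1 file. CMPK2, a mitochondrial nucleotide kinase, was the only one of the 9 with summed FPKM intervals apart, from 51 fragments in the shPSPC1 and 90 in the shLacZ library. BST2, the protein tetherin that holds virus particles at the cell surface, reached 0.610 ± 0.235 FPKM in shPSPC1 and 0.961 ± 0.297 FPKM in shLacZ cells, with overlapping intervals.

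Upstream of the members, almost no interferon transcript was detected. Of 21 ligand genes, 13 were listed at 0 in both libraries, IFNB1 and IFNL1 among them, and only IFNE reached 1 FPKM, with 1.16 ± 0.249 FPKM in shPSPC1 and 0.758 ± 0.203 FPKM in shLacZ cells and overlapping intervals. The 9 receptor and kinase genes had a median log2 ratio of -0.06, and 1 of them passed the 1.5-fold limit. That gene was IFNGR1, the ligand-binding chain of the interferon gamma receptor, which fell to 42.9 ± 1.77 FPKM in shPSPC1 cells, against 78.9 ± 2.15 FPKM in shLacZ cells (-0.86, and -0.83 from 4453 and 7914 fragments). Annotated transcripts of IFNGR1 alone had 23.5 FPKM in shPSPC1 and 41.0 FPKM in shLacZ cells. JAK1 stood at 51.8 ± 0.861 FPKM in shPSPC1 and 53.9 ± 0.886 FPKM in shLacZ cells (-0.06). IFNAR1, a chain of the type I receptor, had 7.83 FPKM in shPSPC1 and 10.0 FPKM in shLacZ cells (-0.32), but 2648 and 2344 fragments (0.14). IFNLR1, a chain of the type III receptor, was under 1 FPKM in both libraries, at 0.425 FPKM in shPSPC1 and 0.449 FPKM in shLacZ cells. The list of 10 signal transducers and other interferon regulatory factors had a median of -0.15, with 6 below 0. The 10 inhibitors of signalling had a median of -0.04, with 5 below 0. By summed FPKM, 34.3% of all genes and 48.9% of those at a mean of 1 FPKM or more were below 0. Neither list held a gene past the 1.5-fold limit in either direction by summed FPKM. By fragments, PIAS1, which blocks STAT proteins, had a log2 ratio of -1.46, against 0.01 by summed FPKM.

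A list of 43 other interferon-induced genes showed the same direction with a smaller median. It stood at -0.14 by either measure, and 37 of the 43 were below 0 by summed FPKM and 34 by fragments. The background below 0 was 34.3% of all genes by either measure. Of the genes at a mean of 1 FPKM or more it was 48.9% by summed FPKM and 48.8% by fragments. Of the 43 listed genes, 5 were at least 1.5-fold lower by summed FPKM, and 3 of the 5 were so by both measures. By summed FPKM the background was 2.45% of all genes and 5.18% of the 11415 genes at a mean of 1 FPKM or more. By both measures it was 1.59% and 3.31%. No gene of the list was 1.5-fold higher by summed FPKM. By fragments 1 was higher, ZNFX1, with a ratio of 0.77 against -0.14 by summed FPKM. The guanylate-binding protein GBP1, an antimicrobial GTPase, fell to 1.58 ± 0.196 FPKM in shPSPC1 cells, against 4.55 ± 0.335 FPKM in shLacZ cells (-1.11), from 259 and 737 fragments, and also passed the 2-fold limit. Its relative GBP2 fell to 3.10 ± 0.299 FPKM in shPSPC1 cells, against 5.51 ± 0.401 FPKM in shLacZ cells (-0.66), and reads may be shared among GBP genes. The helicase-like gene DDX60L fell to 3.87 ± 0.214 FPKM in shPSPC1 cells, against 6.83 ± 0.272 FPKM in shLacZ cells (-0.69). The other 2 were APOL1, at -0.59 by summed FPKM and -0.58 by fragments, and N4BP1, at -0.97 by summed FPKM and 0.16 by fragments.

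**Figure D5:**
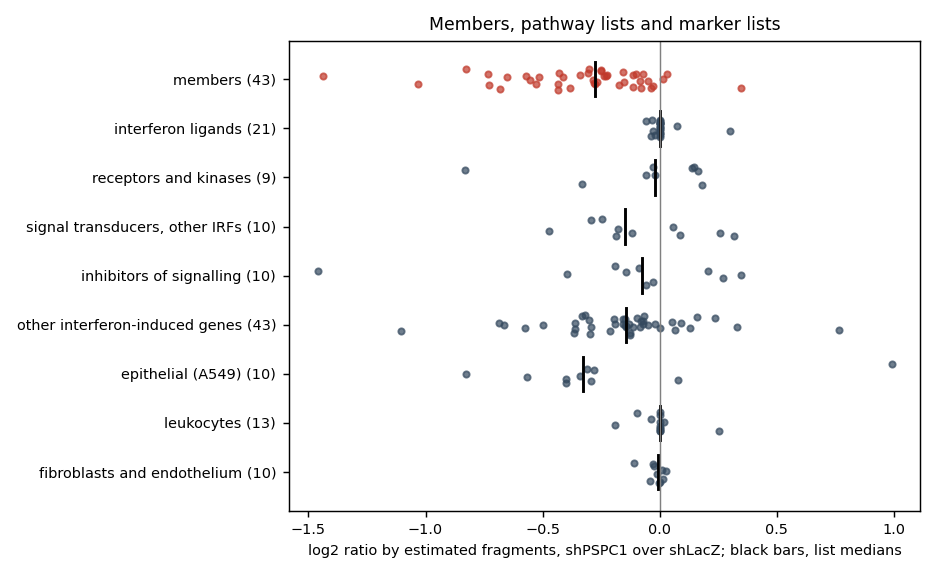
Log2 ratio by estimated fragments, shPSPC1 over shLacZ, of every gene in the members' list and in the pathway and marker lists, with the number of genes in parentheses and the list medians as black bars. The median is -0.28 for the members, -0.14 for the other interferon-induced genes and -0.33 for the epithelial markers.

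Epithelial genes that mark A549 cells were mostly lower as well. All 10 epithelial markers were at 1 FPKM or more, 9 of them were below 0 by summed FPKM and 8 by fragments, and their median was -0.33. The background below 0 was 34.3% of all genes by either measure. Of genes at a mean of 1 FPKM or more it was 48.9% by summed FPKM and 48.8% by fragments. KRT18 stood at 1184 ± 7.98 FPKM in shPSPC1 and 1450 ± 8.89 FPKM in shLacZ cells (-0.29), and KRT19 at 130.1 FPKM in shPSPC1 and 215.8 FPKM in shLacZ cells (-0.73). AKR1B10 was higher by both measures, with 2131 FPKM in shPSPC1 and 1072 FPKM in shLacZ cells (0.99). ALDH1A1 stood at -0.24 by summed FPKM, with an interval in shLacZ cells wider than its value, and at 0.08 by fragments. Of the 13 leukocyte markers, 7 were at 0 in both libraries, including CD3E, and CD14 alone reached 1 FPKM, for a summed 2.81 FPKM in shPSPC1 and 2.73 FPKM in shLacZ cells. None of the 10 markers of fibroblasts and endothelium reached 1 FPKM, and they summed to 0.852 FPKM in shPSPC1 and 1.10 FPKM in shLacZ cells.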

How the data were processed

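RNA was measured in 1 shPSPC1 and 1 shLacZ library. Transcripts were made with CASAVA 1.8.2, TopHat2 2.0.7 and Cufflinks 2.1.1, per the submitters' processing notes, which give no order or roles here. The authors deposited FPKM with the bounds of a 95% interval for each annotated and assembled transcript, per the file headers, and a Cufflinks score that was not used here. No source used here names the genome build.

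Annotated transcripts were joined to genes by accession, and stranded assembled transcripts by a shared intron, which placed 7842 in the shPSPC1 and 7812 in the shLacZ file. Strandless assembled transcripts were left out. A gene's half-width is the root of its transcripts' summed squares. Fragments per FPKM were learned from transcripts alone at their locus, whose intervals implied whole fragment numbers within 0.02 for 95.6% of 32902 in the shPSPC1 and 95.5% of 26679 in the shLacZ file. The rule of size was tested on simulated fragment numbers of genes with known folds. The joining and summing of transcripts and the learned fragments per FPKM were not simulated. All steps were run in Python 3.11.15 with pandas 2.3.3. No p-value was computed, and intervals cover error within a library only. Values are printed for every member at 1 FPKM or more in either library. Other units, pseudocounts, transcript sets, scalings and filters were tried. The members, lists and limits were chosen with earlier results of these data known.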

Additional observations from a re-analysis of the deposited data

How the results depend on the processing

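No member was 1.5-fold higher under any alternative, and the members' median log2 ratio stayed below 0, from -0.43 with a pseudocount of 0.1 FPKM to -0.15 with one of 5 FPKM. The count at least 2-fold lower, 1 by summed FPKM, was 2 by estimated fragments, 3 with a pseudocount of 0.1 (IFI6, IFI27 and IFI44), 3 with annotated transcripts only (MX1, IFI16 and IFI27) and 2 with the most abundant transcript only (PLSCR1 at -1.22 and IFI16). The count at least 1.5-fold lower, 7 by summed FPKM, was 6, without IFIT3, with assembled transcripts also joined by exon overlap and with the same sum without mitochondrial genes. It was 2 with a pseudocount of 5 and 3 among the 17 members at 5 FPKM or more in both libraries, of which 16 were below 0. Alternatives chosen after seeing the data gave 2 at 2-fold by estimated fragments centred on the median, and 0 at 2-fold and 4 at 1.5-fold among the 30 members with no FPKM on transcripts of 1 file only, where fewer genes are counted. The ratio of IFI6 ranged from -1.80 to -0.19. The sign of IRF1 turned to -0.43 with annotated transcripts only and -0.17 with the most abundant one. DHX58 stood at 0.14 with annotated transcripts only and SAMD9 at 0.13 with the most abundant one. Scaling to the same sum without mitochondrial genes shifted the median of genes at a mean of 1 FPKM or more by 0.08, less for members at low levels, and left 38 members below 0, with a median of -0.21. The causes of these changes were not tested beyond what each alternative counts. No paired analysis was possible because each group has 1 library and the results come from no test, and leaving out a library leaves none in its group. At this depth, the 9 members under 1 FPKM in both libraries rest on at most 113 fragments in shPSPC1 and 142 in shLacZ cells.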

Other observations

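The 5 assembled IFI6 transcripts of the shLacZ file differ in where they start and carry the same FPKM of 5.10 each. Their 5′ ends lie 48, 24, 36 and 48 bases apart, all multiples of 12 bases. The annotated IFI6 transcripts, of 836, 848 and 860 bases, differ in length by 12 bases from one to the next. In the IFI27 locus, the assembled transcript of the shLacZ file, at 1.58 FPKM, starts at 94547639 on chromosome 14, upstream of the annotated start at 94577079, whereas the assembled one of the shPSPC1 file, at 1.05 FPKM, has the annotated ends. The long assembled EIF2AK2 transcripts, 1 of 13450 bases in the shPSPC1 file and 3 between 12413 and 13683 bases in the shLacZ file, extend the 3′ end of the gene past the annotated transcripts of at most 4348 bases.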
